A study of Mus musculus with 8 samples.

Results

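The 8 genes Acaa1b, Cpt1a, Ehhadh, Acot1, Pdk4, Vnn1, Plin2 and Fgf21, known as targets of the nuclear receptor PPAR-alpha, were followed in liver RNA, 8 of the 22180 genes measured. They were chosen by name, and each was read from the single array row that names it alone. In the order above they lie on chromosomes 9, 19, 16, 12, 6, 10, 4 and 7. The mice of both groups were C57BL/6, labelled female, 6 weeks old, and drank 3% dextran sulfate sodium (DSS), which injures the colon lining, for 7 days. One group of 4 arrays came from mice labelled IL-10 knockout, a genotype that lacks the anti-inflammatory cytokine interleukin-10, and the other 4 came from wild-type mice. No untreated liver was compared, so every difference below is between genotypes under DSS. Values are log2 levels from robust multi-array averaging (RMA) on Affymetrix Mouse Gene 2.0 ST arrays, and differences are knockout-labelled minus wild-type.

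PPAR-alpha, encoded by Ppara, is a receptor for fatty acids that pairs with a retinoid X receptor and binds direct repeats in the DNA near its targets. In fasting liver it switches on the uptake, peroxisomal and mitochondrial oxidation of fatty acids, and the making of ketone bodies from the acetyl-CoA that results. The 8 genes sit at different points of that programme, but none encodes an enzyme of ketone body synthesis itself. Those nearest to ketogenesis are Cpt1a, the gate to mitochondrial oxidation, and Fgf21, a fasting hormone.

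Several properties of the arrays bear on the values. Il10 read 5.79, 5.69, 6.00 and 6.41 in the arrays labelled knockout, against 4.95, 5.08, 4.90 and 4.95 in wild-type arrays (difference 1.00; limma adjusted p = 0.00851). The row of the targeted gene thus went against the knockout label; whether its probes lie in the deleted part was not analysed here, and every direction rests on the labels alone. Although all mice are labelled female, replicates 1 and 2 of both groups had Y-linked signal (Eif2s3y, Kdm5d and Uty between 8.03 and 8.71, against 4.08 to 4.61 in the other arrays) and only replicates 3 and 4 had Xist signal (11.68 to 11.82). Results are therefore also given for the 4 arrays with Xist signal, which fit the label, and for the 4 with Y-linked signal. Knockout-labelled replicate 3 had the lowest array weight in limma, 0.447, where the other arrays had 0.965 to 1.25. The 12 hepatocyte markers had mean levels of 12.61 to 12.69 in knockout-labelled arrays and 12.62 to 12.68 in wild-type arrays. Of the 12, 1 was called higher by limma, Tat, as were 1.56% of all genes. In whole liver, fewer cells of a type and less RNA per cell cannot be told apart.

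Of the 8 genes, Acaa1b fell in the arrays labelled knockout and the other 7 did not pass the test (limma, adjusted over all genes, threshold 0.05). Across all genes 3.15% were called, 1.56% as higher and 1.59% as lower. The count of members was also 1 without knockout-labelled replicate 3 (2.6% of all genes called) and with a block for sex-linked signal (4.68%). It was 0 in the arrays with Xist signal (1.43% of all genes) and 0 in those with Y-linked signal (0.771%), by limma in each set. At an unadjusted p under 0.05 there were 3 of the 8 members in all arrays, against 21.2% of all genes, 2 in the arrays with Xist signal, against 16.5%, and 2 in those with Y-linked signal, against 10.9%. The median difference was -0.14 over the 8 genes and 0.03 over all genes. Without knockout-labelled replicate 3 these were 0.08 and 0.02, so the direction of the members' median rested on that array. In the arrays with Xist signal, which include it, the 2 medians were -0.39 and 0.03. In those with Y-linked signal they were 0.02 and 0.01.

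**Figure D1:**
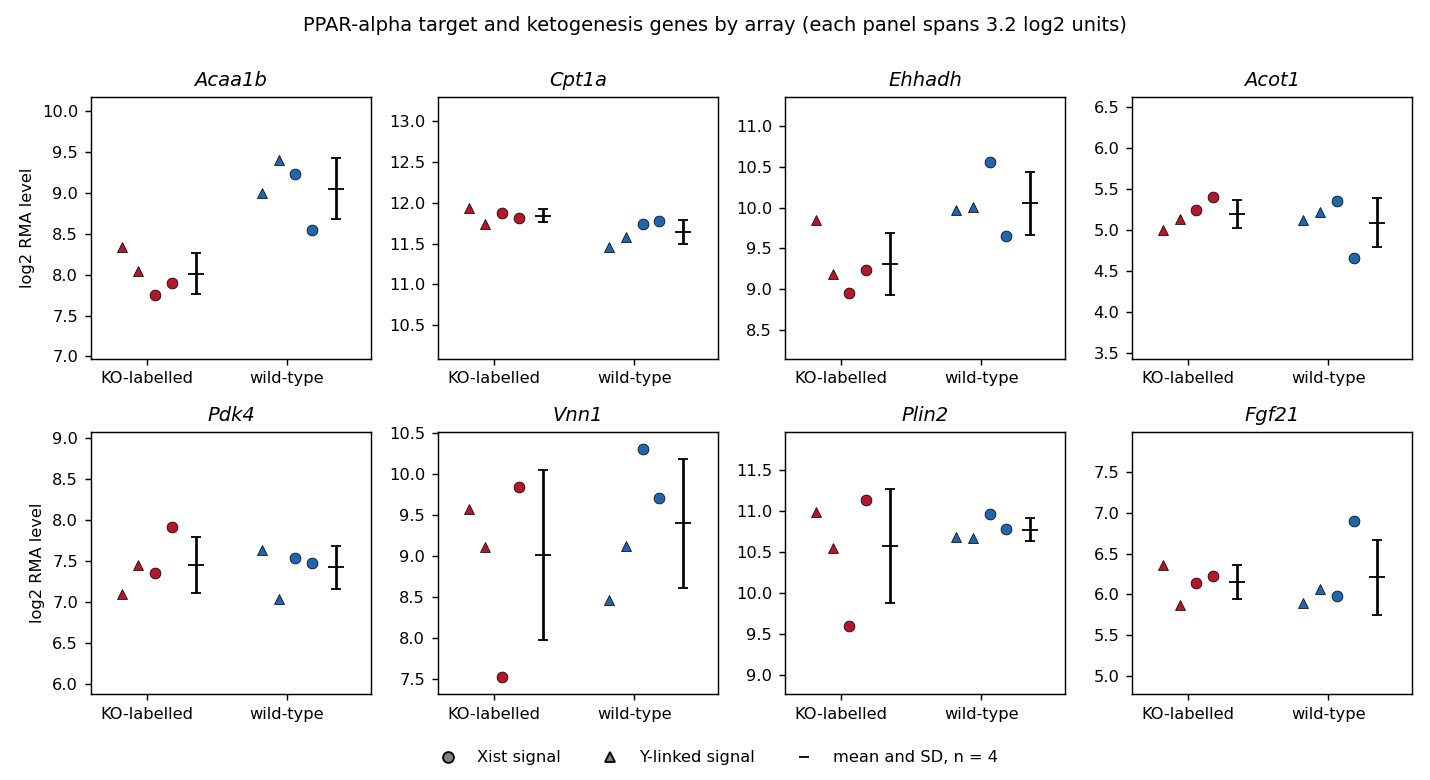
Log2 RMA level (vertical axis) of each of the 8 genes in every array, with knockout-labelled arrays in red on the left of each panel and wild-type arrays in blue on the right; circles are arrays with Xist signal, triangles arrays with Y-linked signal, and bars the mean and SD (n = 4). The groups are apart for Acaa1b alone, and knockout-labelled replicate 3 is the low point of Vnn1 (7.52) and Plin2 (9.59).

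Peroxisomal oxidation was represented by Acaa1b and Ehhadh. Acaa1b encodes a peroxisomal 3-ketoacyl-CoA thiolase, which releases acetyl-CoA in the last step of each oxidation round. Acaa1b read 8.34, 8.05, 7.75 and 7.90 in knockout-labelled replicates 1 to 4, against 9.0, 9.40, 9.23 and 8.55 in wild-type replicates 1 to 4. Every knockout-labelled array was below every wild-type array; groups were apart, in either direction, for 12.9% of all genes. The level averaged 8.01 ± 0.25 in knockout-labelled and 9.05 ± 0.37 in wild-type arrays (SD, n = 4 each), a difference of -1.04 (SE 0.18; 95% interval -1.44 to -0.63; limma adjusted p = 0.0202), or 2.05-fold lower. The difference was nearly equal in the arrays with Xist signal (-1.06; limma adjusted p = 0.0889) and with Y-linked signal (-1.01; adjusted p = 0.0629), and with a block for these sets the adjusted p was 0.0084. The call was lost without knockout-labelled replicate 4 (limma adjusted p = 0.0641) or wild-type replicates 1, 2 or 3 (0.058, 0.056 and 0.066), while the difference stayed between -1.20 and -0.92 over the 8 fits that each leave out 1 array.

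Acaa1b has a close copy, Acaa1a, which encodes the other peroxisomal thiolase of the mouse and is expressed constitutively. Acaa1a read 8.75, 8.62, 8.13 and 8.45 in knockout-labelled arrays, against 8.35, 8.27, 8.25 and 8.26 in wild-type arrays (difference 0.21; SE 0.12; limma adjusted p = 0.343). Its groups overlapped, in that knockout-labelled replicate 3 was below all wild-type arrays and the other 3 were above them. Within an array, Acaa1b minus Acaa1a was -0.48 ± 0.10 in knockout-labelled arrays and 0.77 ± 0.38 in wild-type arrays (SD, n = 4 each). This contrast was chosen after the values were seen and is given as a description, with no test. How far the probes of these rows tell the copies apart was not tested.

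Ehhadh encodes the peroxisomal bifunctional enzyme that carries out the hydratase and dehydrogenase steps ahead of the thiolase. It read 9.85, 9.19, 8.95 and 9.24 in knockout-labelled arrays, against 9.97, 10.01, 10.56 and 9.65 in wild-type arrays. The groups overlapped through knockout-labelled replicate 1, which lay above wild-type replicate 4. Its difference of -0.74 (SE 0.22; 95% interval -1.22 to -0.26) had limma adjusted p = 0.092, short of the threshold; at an adjusted p below 0.1 Ehhadh would join Acaa1b as called, with 7.6% of all genes. Without knockout-labelled replicate 1 it was called (-0.92; limma adjusted p = 0.0298; 4.69% of all genes called); with the other arrays left out in turn its adjusted p lay between 0.0759 and 0.206. The difference was -1.01 in arrays with Xist signal and -0.47 in those with Y-linked signal, and the test of that contrast gave limma interaction adjusted p = 0.928. Among the 8 genes Ehhadh was the nearest in pattern to Acaa1b, with a root mean square difference of 0.26 log2 units over the 8 arrays after each gene's own mean was taken off, where Acaa1b itself varied by 0.59 about its mean.

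The promoters of Acaa1b and Plin2 are shown because Acaa1b was the only member called and Plin2 holds the closest match among the members to the direct repeat that PPAR-alpha and its partner bind. Sequences are from RefSeq (GRCm38.p6), read 5′ to 3′ along the gene from 250 bases before to 50 after its start; of the 8 genes, 7 had an entry, and Vnn1 had none. The motif searched on both strands was 2 copies of AGGTCA with 1 free base between them, and capitals mark the stretch that matches most of its 12 fixed letters. The Acaa1b window is chr9:119157044-119157343 and that of Plin2 chr4:86670010-86670309, both on the minus strand.
Acaa1b: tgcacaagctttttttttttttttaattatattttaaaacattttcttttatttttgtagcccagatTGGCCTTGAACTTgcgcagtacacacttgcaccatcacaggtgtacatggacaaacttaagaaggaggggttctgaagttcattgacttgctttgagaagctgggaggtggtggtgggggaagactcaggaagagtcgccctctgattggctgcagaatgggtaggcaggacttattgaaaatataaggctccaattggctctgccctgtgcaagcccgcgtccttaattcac
Plin2: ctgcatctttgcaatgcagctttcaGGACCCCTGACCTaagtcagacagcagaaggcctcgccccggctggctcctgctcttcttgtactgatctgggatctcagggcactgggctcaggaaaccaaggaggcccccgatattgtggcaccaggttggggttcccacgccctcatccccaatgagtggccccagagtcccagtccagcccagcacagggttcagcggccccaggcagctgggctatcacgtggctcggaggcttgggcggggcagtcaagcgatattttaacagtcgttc
In Plin2 the marked stretch starts 225 bases before the start and differs from the motif at 2 letters, a match that 3.86% of the 32851 promoters hold. Its last 6 bases are a full copy of AGGTCA read on the other strand, the only full copy in that window. Of the 7 member promoters, 2 (Plin2 and Cpt1a) hold a full copy on either strand, as do 16.3% of all promoters. In Acaa1b and the other 5 members the best stretch differs at 4 letters, which 79.8% of promoters reach. For comparison, Fabp1, a PPAR-alpha target discussed below, holds TGACCTATGGCCT 67 bases before its start, which differs at 1 letter, as in 0.554% of promoters. These matches describe letters in a short window and show no binding.

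Cpt1a encodes carnitine palmitoyltransferase of the outer mitochondrial membrane, which commits long-chain fatty acids to mitochondrial oxidation. It read 11.93, 11.74, 11.87 and 11.81 in knockout-labelled arrays, against 11.46, 11.58, 11.74 and 11.78 in wild-type arrays. The knockout-labelled arrays were the higher set, but wild-type replicates 3 and 4 reached into their range. The difference of 0.20 (SE 0.09; 95% interval 0.00 to 0.39) did not pass (limma adjusted p = 0.23), and the upper end of the interval is 1.31-fold. Cpt1a thus had a difference of opposite sign to those of Acaa1b and Ehhadh, and its spread within groups was the smallest of the 8 (0.12, against 0.25 to 0.93).

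Acot1 encodes a cytosolic thioesterase that splits long-chain acyl-CoA to free fatty acid and is known for its steep response to PPAR-alpha activation. It read 5.0, 5.14, 5.25 and 5.40 in knockout-labelled arrays, against 5.12, 5.22, 5.36 and 4.66 in wild-type arrays. All 8 values were below the array medians of 6.09 to 6.22, no detection call comes with the values, and Acot1 was the only member removed when the lowest 40% of genes were left out. The groups overlapped in part, with knockout-labelled replicate 4 above and wild-type replicate 4 below all other arrays (difference 0.11; 95% interval -0.22 to 0.43; limma adjusted p = 0.699). Its mitochondrial relative Acot2 averaged 8.07 ± 0.22 in knockout-labelled arrays and 8.10 ± 0.55 in wild-type arrays (SD, n = 4 each; difference -0.03; limma adjusted p = 0.962). Close copies in this gene family can share probe signal, so the rows of Acot1 and Acot2 are uncertain as measures of single genes.

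Pdk4 encodes pyruvate dehydrogenase kinase, which spares glucose by blocking the entry of pyruvate into oxidation. It read 7.10, 7.45, 7.35 and 7.92 in knockout-labelled arrays, against 7.63, 7.03, 7.54 and 7.48 in wild-type arrays. The highest value was that of knockout-labelled replicate 4 and the lowest that of wild-type replicate 2, and the other arrays of the groups were mixed between them. The difference was 0.03 (SE 0.18; 95% interval -0.36 to 0.43; limma adjusted p = 0.93), and the interval ran from 0.779-fold to 1.35-fold.

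Fgf21 encodes a hormone that the liver releases in fasting and under stress and that acts on distant tissues through the co-receptor beta-klotho. It read 6.36, 5.87, 6.14 and 6.22 in knockout-labelled arrays, against 5.90, 6.07, 5.98 and 6.90 in wild-type arrays. Wild-type replicate 4 was the highest of the 8. The other 7 lay between 5.87 and 6.36, near the array medians of all rows and below 6.6, the median of the means of all genes. The difference was -0.07 (SE 0.20; 95% interval -0.52 to 0.39; limma adjusted p = 0.872) and became 0.16 without wild-type replicate 4. Klb, the gene of beta-klotho, averaged 9.80 ± 0.40 in knockout-labelled arrays and 10.02 ± 0.21 in wild-type arrays (SD, n = 4 each; limma adjusted p = 0.50).

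Vnn1 and Plin2 had the largest spread within groups of the 8 genes. Vnn1 encodes a pantetheinase, which recycles the vitamin used to build coenzyme A. It read 9.58, 9.11, 7.52 and 9.84 in knockout-labelled arrays, against 8.46, 9.12, 10.31 and 9.71 in wild-type arrays. Its SD within groups was 0.93, at percentile 99.7 of all genes, with knockout-labelled replicate 3 the lowest and wild-type replicate 3 the highest of the 8 arrays. The difference was -0.39 (95% interval -1.52 to 0.75; limma adjusted p = 0.687). It was -1.33 in the arrays with Xist signal, which include that replicate, 0.56 in those with Y-linked signal (limma interaction adjusted p = 0.904), and 0.11 without knockout-labelled replicate 3.

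Plin2 encodes perilipin 2, which coats the lipid droplets of hepatocytes. It read 10.99, 10.55, 9.59 and 11.14 in knockout-labelled arrays, against 10.68, 10.67, 10.96 and 10.78 in wild-type arrays. The knockout-labelled arrays spread over 1.55 log2 units and reached both above and below the wild-type arrays, which lay within 0.29 units of each other. The difference was -0.21 (SE 0.28; 95% interval -0.83 to 0.42; limma adjusted p = 0.70) and 0.12 without knockout-labelled replicate 3.

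**Figure D2:**
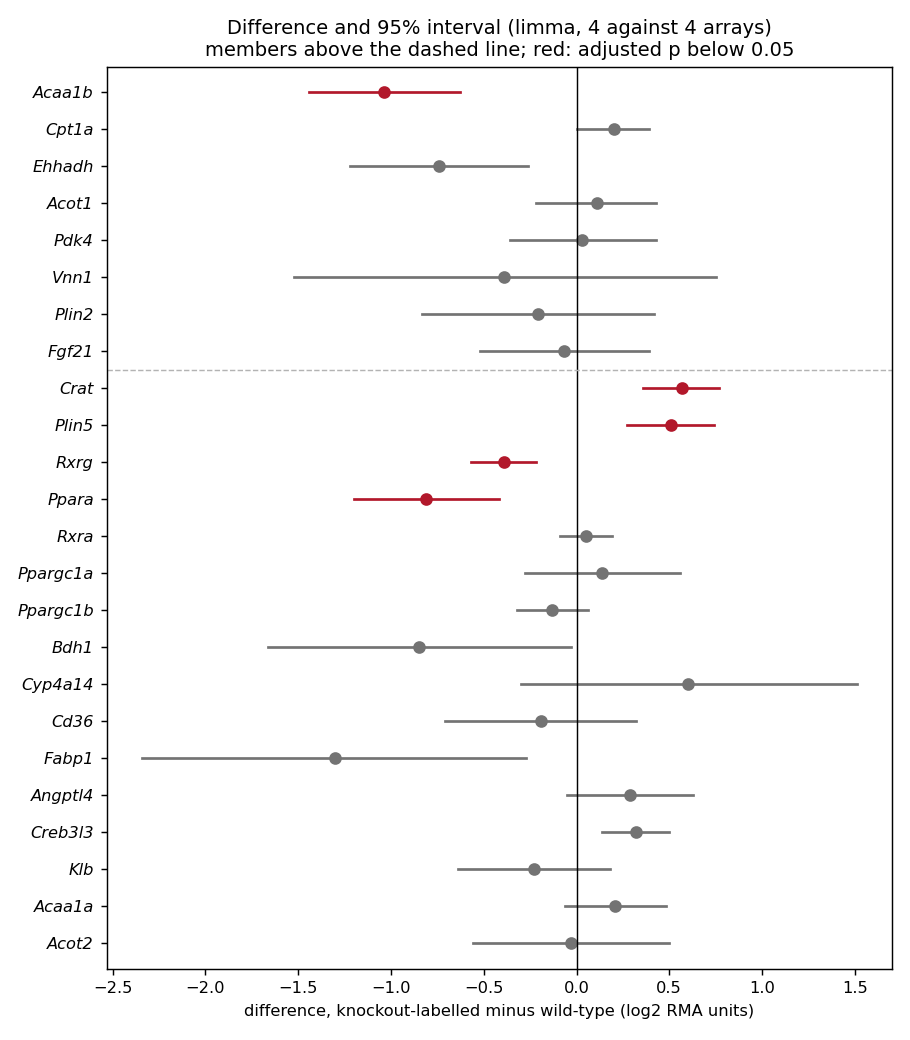
Difference in log2 RMA units, knockout-labelled minus wild-type (horizontal axis), with the 95% interval from limma for the 8 genes (above the dashed line) and for the other named genes of the pathway; red marks an adjusted p below 0.05. Acaa1b (-1.04) is the only member in red, and the interval of Vnn1 (-1.52 to 0.75) is the widest of the 8.

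Several members were lowest in the same array. Acaa1b, Ehhadh, Vnn1 and Plin2, 4 of the 8 genes, had their lowest value in knockout-labelled replicate 3, as did 18.7% of all genes, while Cpt1a, Acot1, Pdk4 and Fgf21 did not. Among the 79 measured genes of the wider lists described below, 34 were lowest in that array (43.0%). Against each gene's wild-type mean, the median of the 8 genes was 0.03, -0.26, -0.59 and 0.24 in knockout-labelled replicates 1 to 4, and between -0.09 and 0.19 in wild-type arrays. Knockout-labelled replicates 1 and 4 thus lay among or above the wild-type arrays and replicate 3 lowest. The same median over all genes was between 0.01 and 0.04 in knockout-labelled arrays.

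**Figure D3:**
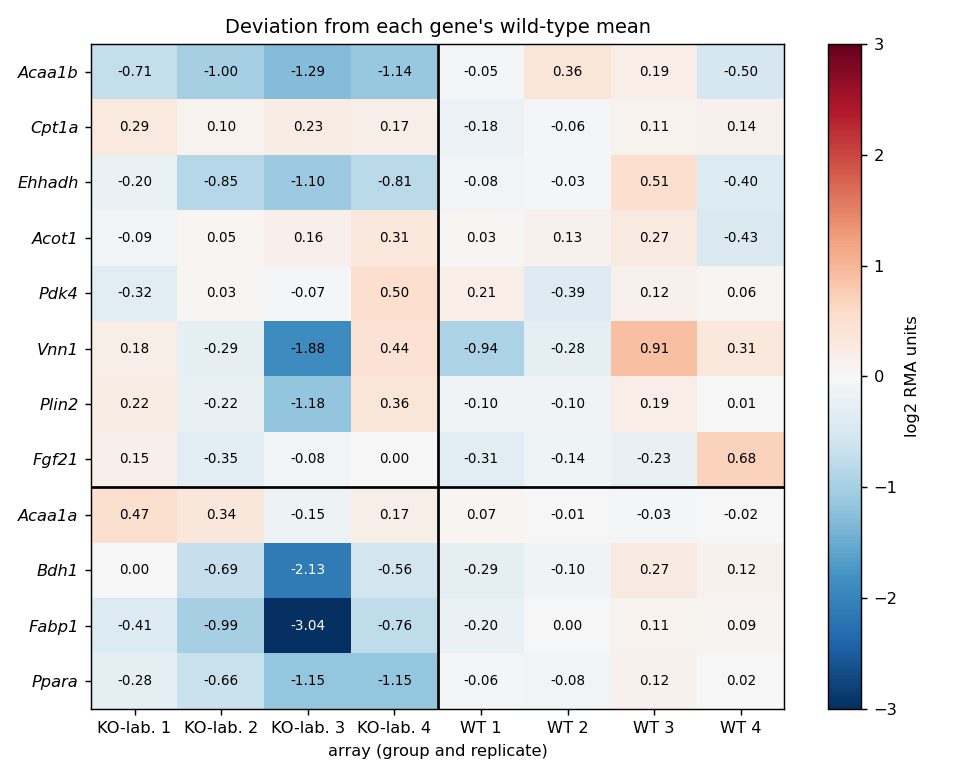
Deviation of each array (columns) from the gene's wild-type mean, in log2 RMA units, for the 8 genes (above the line) and for Acaa1a, Bdh1, Fabp1 and Ppara. Knockout-labelled replicate 3 has the lowest value of 4 of the 8 genes, and Fabp1 in that array is at -3.04.

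The gene of the receptor itself, Ppara, fell as well in the knockout-labelled arrays. Ppara read 9.56, 9.19, 8.70 and 8.70 in knockout-labelled replicates 1 to 4, against 9.79, 9.76, 9.97 and 9.87 in wild-type replicates 1 to 4. The groups did not overlap, and the knockout-labelled arrays spread over 0.87 log2 units where the wild-type arrays lay within 0.20 of each other. The level averaged 9.03 ± 0.42 in knockout-labelled and 9.85 ± 0.09 in wild-type arrays (SD, n = 4 each), a difference of -0.81 (SE 0.18; 95% interval -1.20 to -0.42; limma adjusted p = 0.0401), or 1.76-fold lower. The difference was -1.22 in arrays with Xist signal (limma adjusted p = 0.0106) and -0.40 in arrays with Y-linked signal (adjusted p = 0.358); the interaction had adjusted p = 0.549. Leaving out any 1 array other than knockout-labelled replicate 1 ended the call of Ppara: the adjusted p was 0.0717 when knockout-labelled replicate 3 was left out and reached 0.117 for wild-type replicate 3. It was 0.0829 when every row of the table was tested.

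Of the 19 measured genes of the receptor and its regulators, Ppara and Rxrg fell and 17 did not pass. The share called was 10.5%, against 3.15% of all genes, 1.59% as lower. The list median was -0.04, against 0.03 for all genes. Rxrg encodes a retinoid X receptor and lies on chromosome 1, as Il10 does, while none of the 8 members is on that chromosome. It averaged 6.53 ± 0.13 in knockout-labelled arrays and 6.93 ± 0.05 in wild-type arrays (SD, n = 4 each; difference -0.39; limma adjusted p = 0.0292). Leaving out knockout-labelled replicate 4 or any of the wild-type arrays ended this call (adjusted p up to 0.0898), as did testing every row of the table (0.0627). Rxra, the main partner of PPAR-alpha in liver, averaged 11.35 ± 0.04 in knockout-labelled arrays and 11.30 ± 0.04 in wild-type arrays, with a 95% interval of -0.09 to 0.19. The coactivators Ppargc1a (0.14; limma adjusted p = 0.702) and Ppargc1b (-0.13; adjusted p = 0.393) did not pass.

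**Figure D4:**
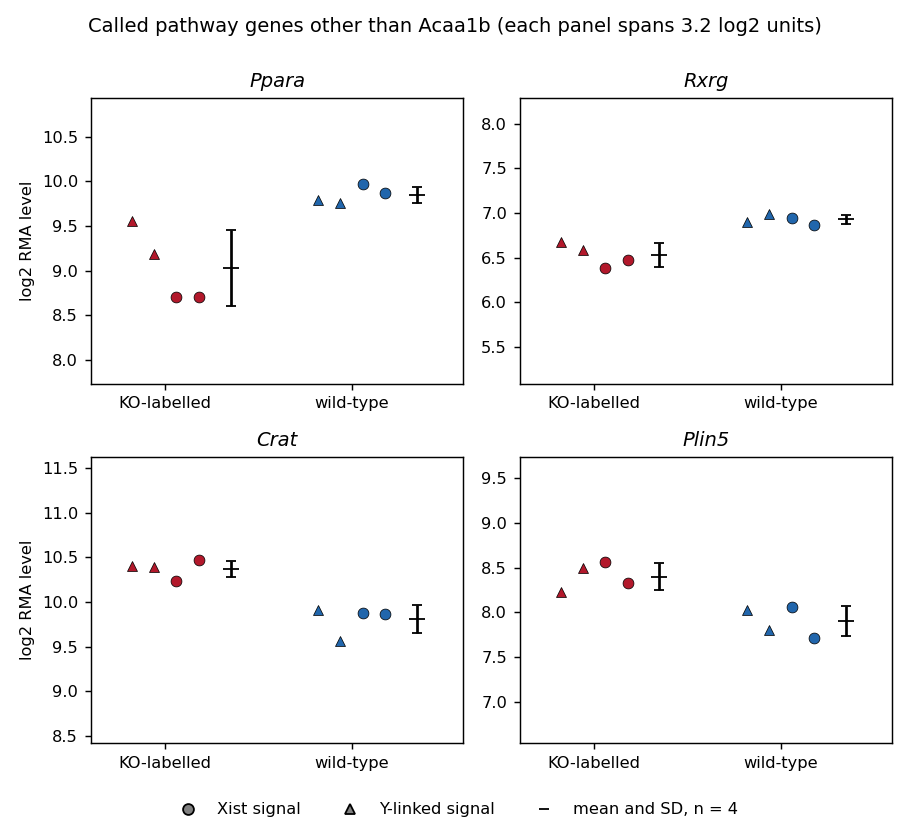
Log2 RMA level (vertical axis) by array for the 4 called genes of the wider pathway lists other than Acaa1b, knockout-labelled arrays in red on the left and wild-type arrays in blue on the right; circles have Xist signal, triangles Y-linked signal, and bars are mean and SD (n = 4). Ppara and Rxrg are lower, and Crat and Plin5 higher, in all 4 knockout-labelled arrays.

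The wider pathway was described with 5 lists that hold 87 genes, the 8 members among them, 79 of them measured by a row of their own and 5 of these called, 2 higher and 3 lower (6.33%, against 3.15% of all genes). None of these 5 passed the unmoderated test, in which no gene did (18.7% of all genes had an unadjusted p under 0.05); their adjusted p there ran from 0.0975 for Crat to 0.168 for Ppara. Of the 5, Ppara alone was called in the arrays with Xist signal and none in those with Y-linked signal, which are fewer arrays (15 of the 79 had an unadjusted p under 0.05 there). Of 15 peroxisomal genes, Crat rose, Acaa1b fell and 13 did not pass (list median -0.33). In knockout-labelled replicate 3, 9 of the 15 had their lowest value, and the list median without that array was -0.26. Split by sex-linked signal, the list median was -0.44 for the Xist set, which includes that array, and -0.10 for the Y-linked set. Crat encodes carnitine acetyltransferase, which moves acetyl groups out of peroxisomes and mitochondria. It read 10.40, 10.39, 10.24 and 10.47 in knockout-labelled arrays, against 9.91, 9.57, 9.88 and 9.87 in wild-type arrays, with no overlap (difference 0.57; SE 0.09; limma adjusted p = 0.0144), and leaving out knockout-labelled replicate 4 ended the call (0.0513). The mean of the 2 rows that name Crat differed by 0.38 (limma adjusted p = 0.0324). Abcd2, a peroxisomal fatty acid transporter singled out after its values were seen, had the lowest difference of the list at -1.40 (limma adjusted p = 0.0696). Its values were 8.80, 8.21, 9.18 and 8.18 in knockout-labelled arrays and 9.10, 9.54, 10.60 and 10.71 in wild-type arrays, and it passed with the block for sex-linked signal (adjusted p = 0.0278).

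None of 20 mitochondrial oxidation genes was called by limma, and 6 had an unadjusted p under 0.05, where 21.2% of all genes did; their differences had a median of -0.06. Of 3 measured genes of ketone body synthesis and export, none was called and 1, Bdh1, had an unadjusted p under 0.05. Bdh1 encodes the dehydrogenase that turns acetoacetate into beta-hydroxybutyrate. It read 9.23, 8.54, 7.10 and 8.67 in knockout-labelled arrays, against 8.95, 9.13, 9.50 and 9.35 in wild-type arrays (difference -0.85; limma adjusted p = 0.221). The difference was -0.42 without knockout-labelled replicate 3, its lowest array, and the groups overlapped through knockout-labelled replicate 1.

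Of 22 other PPAR-alpha targets, Plin5 rose and 21 did not pass (list median 0.04). The share called was 4.55%, against 3.15% of all genes. Plin5 encodes perilipin 5, which ties lipid droplets to mitochondria; it averaged 8.40 ± 0.15 in knockout-labelled arrays and 7.90 ± 0.17 in wild-type arrays (SD, n = 4 each; difference 0.51; limma adjusted p = 0.0357). The call ended when any 1 array other than knockout-labelled replicate 1 was left out (adjusted p up to 0.096), with a common median (0.0533) or with every row tested (0.0746). Its droplet-coat relative Plin2 had a difference of -0.21, as given above. Fabp1, the main fatty acid binding protein of hepatocytes, read 11.81, 11.24, 9.19 and 11.47 in knockout-labelled arrays, against 12.03, 12.22, 12.34 and 12.31 in wild-type arrays. The groups were apart, but the spread of the knockout-labelled arrays left the difference of -1.30 short of the threshold (limma adjusted p = 0.149). Without knockout-labelled replicate 3 it was -0.72 and passed (adjusted p = 0.0302).

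The remaining targets named by rule differed in sign. Creb3l3, a transcription factor of the fasting liver, averaged 11.31 ± 0.13 in knockout-labelled arrays and 10.99 ± 0.06 in wild-type arrays (SD, n = 4 each; difference 0.32; limma adjusted p = 0.0622), with groups apart, and it passed without knockout-labelled replicate 3 (0.0306). Angptl4, an inhibitor of lipoprotein lipase, had 0.29 (limma adjusted p = 0.305), the fatty acid transporter Cd36 had -0.19 (0.653) and the fatty acid hydroxylase gene Cyp4a14 had 0.60 (0.418). Cyp4a14, known as a strong PPAR-alpha target in mouse liver, spread over 2.12 log2 units among the wild-type arrays alone.

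**Figure D5:**
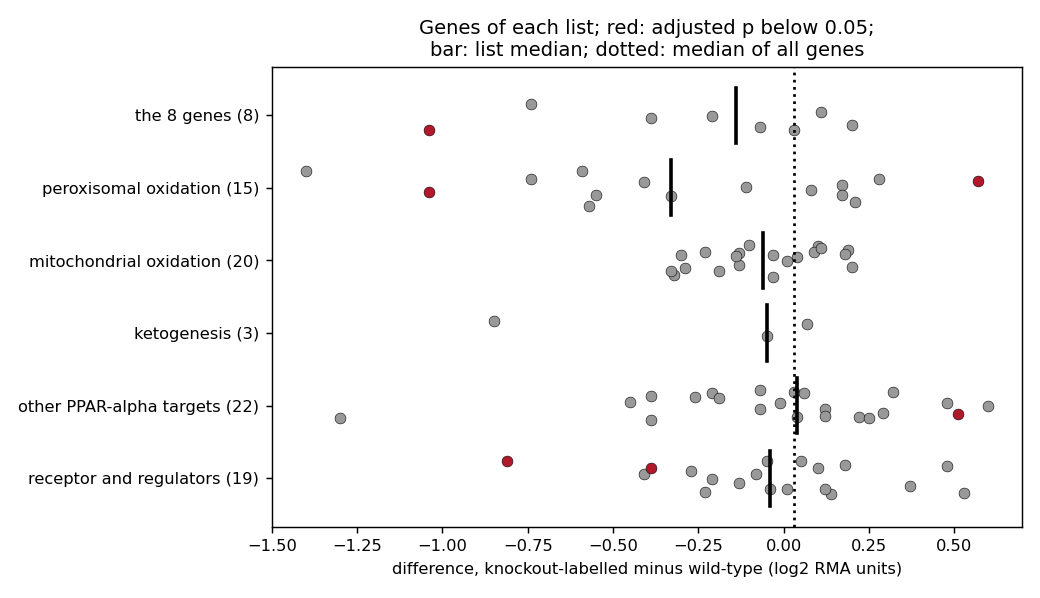
Difference in log2 RMA units, knockout-labelled minus wild-type (horizontal axis), for each measured gene of the 8 members and of the 5 pathway lists, whose number of measured genes is in brackets; red marks an adjusted p below 0.05, bars are list medians and the dotted line is the median of all genes (0.03). The peroxisomal list has the lowest median (-0.33) and holds called genes on both sides of 0.

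Markers of immune cells moved with the groups in which Acaa1b and Ppara fell. Across all genes, limma called 1.56% higher and 1.59% lower. Of 14 neutrophil markers 11 rose, with mean levels of 7.47 to 8.05 in knockout-labelled arrays and 6.58 to 6.99 in wild-type arrays. Of 11 Kupffer cell and macrophage markers 5 rose (9.75 to 10.19 in knockout-labelled arrays, 9.20 to 9.50 in wild-type arrays). Of 7 monocyte markers 4 rose (6.75 to 7.46 in knockout-labelled arrays, 5.95 to 6.30 in wild-type arrays), and of 8 T and NK cell markers 2 rose (6.5 to 6.61 in knockout-labelled arrays, 6.04 to 6.43 in wild-type arrays). Of 7 stellate cell markers 2 fell (7.68 to 8.53 in knockout-labelled arrays, 8.41 to 8.82 in wild-type arrays). All 7 were lowest in knockout-labelled replicate 2, as were 8.44% of all genes. No adipocyte, muscle or intestine marker was called by limma among 5 of each. At an unadjusted p under 0.05 there were 2, 0 and 1, against 21.2% of all genes. The mean levels of the hepatocyte markers given above overlapped between groups. Singly, 4 of the 12 had groups apart, as did 12.9% of all genes. Alb (-0.12) and Ttr (-0.16) were lower in knockout-labelled arrays, and Hnf4a (0.17) and Tat (0.51) were higher. The part of the cell types named here in the differences was not tested.

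The genes whose pattern over the 8 arrays was most like that of a member were found as the smallest root mean square difference after each gene's own mean was taken off. For Acaa1b these were Akr1c19 and Rps23rg1 (0.16 log2 units each), and for Ehhadh Myct1 and Mpp1 (0.15 each). For Cpt1a they were Eno4 and Lao1 (0.04 each, where Cpt1a itself varied by 0.14), for Acot1 Trpc6 and Xlr3c (0.11 and 0.12) and for Pdk4 Zup1 and Ppip5k1 (0.10 and 0.11). For Vnn1 they were Oas1g (0.36) and Fabp2 (0.40), which is also on the list of other PPAR-alpha targets, where Vnn1 itself varied by 0.82. For Plin2 they were Pdia6 (0.13) and Irf7 (0.15), and for Fgf21 Iffo2 and BC055402 (0.17 each). Only Fabp2 among these 16 genes stood on a pathway list, as did 79 of the 22180 genes measured.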

How the data were processed

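Liver RNA of 8 mice was measured on 8 arrays. The log2 values deposited by the authors come from robust multi-array averaging (RMA), and the submitters' processing notes name R 3.0.1; RMA subtracts background, equalises the distributions of probe values and summarises probes, which can compress low levels. Neither RMA settings nor a genome build is given in the sources used here. The table holds 41345 rows, and 23521 name 1 gene in the platform annotation, 1814 several and 16010 none listed. Of 22180 genes, 1082 had several such rows, and each was represented by its brightest, the one with the highest mean over all arrays.

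Groups were taken from sample titles. The main fit was limma's lmFit with eBayes (version 3.58.1, R 4.3.3, no trend), run on all 22180 genes with Benjamini-Hochberg adjustment and no filter. The alternatives used the same tool, except that the unmoderated test took lmFit without eBayes. Where every row of the table was tested, the adjustment was over its 41345 rows. No label used here ties arrays to litters or batches, and p-values reflect only the spread among these arrays, whose number sets the precision. The closest pair of arrays differed by 0.22 log2 units (root mean square). The main fit alone was tested on simulated arrays, with known changes and independent normal spread for each gene. The other steps were not tested in this way. Intervals are 95%.

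The members, lists, alternatives and the rule for named genes were chosen with earlier results of these data known. The rule names the 8 members, up to 6 called genes of each pathway list, 17 further regulators and targets (those with a row of their own are reported), and the 2 genes most like each member in pattern. Alternatives covered filtering, scaling, moderation, array weights, blocks for replicate number and for sex-linked signal, each set of 4 arrays with the same sex-linked signal, thresholds, and each array left out. Plots were made with Python 3.11.15 and matplotlib 3.10.9.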

Additional observations from a re-analysis of the deposited data

Results flagged for a closer look

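In 4 of the 48 groups of 4 arrays examined for the 24 named genes, an array stood apart from the other 3 by more than Dixon's critical value of 0.829 times the range; chance gives about 1 in 20. None of the 4 was a value of Acaa1b, Cpt1a, Ehhadh, Acot1, Pdk4, Vnn1, Plin2 or Fgf21. Cyp4a14 read 11.03 in knockout-labelled replicate 1, a gap of 0.89 log2 units to the next array of its group. Crat read 9.57 in wild-type replicate 2, a gap of 0.30. Acaa1a read 8.35 in wild-type replicate 1, a gap of 0.08, and Ppargc1b read 6.58 in wild-type replicate 4, a gap of 0.04, both in groups that spread very little.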

How the results depend on the processing

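Acaa1b kept its call with low genes left out, with every row of the table, with rows of a gene averaged, with a common median, quantile normalization, cyclic loess, trend and robust moderation, array weights, a block for sex-linked signal and a 1.5-fold minimum. The count of members called was 1; it was 0 with the unmoderated test, 0 for the arrays with Xist signal alone and 0 for those with Y-linked signal alone, with 2 members at an unadjusted p under 0.05 in each of the 3 (18.7%, 16.5% and 10.9% of all genes), and 2 at an adjusted p below 0.1. With 1 array left out it lay between 0 and 2. It was 0 when wild-type replicate 1, 2 or 3 or knockout-labelled replicate 4 was missing. In those fits 207, 237, 238 and 207 of all genes were called, in that order. It was 2 without knockout-labelled replicate 1, where 1040 of all genes were called. The main fit called 699 of the 22180 genes.

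The count over the 79 pathway genes was 5. It was 2 with every row of the table, where more rows are tested (332 of 41345 rows called). It was 0 with the unmoderated test, as over all genes (20 at an unadjusted p under 0.05, against 18.7% of all genes). It was 3 for the arrays with Xist signal alone (1.43% of all genes called). It was 0 for those with Y-linked signal alone (0.771% of all genes called, with 15 unadjusted, against 10.9%). It was 12 at an adjusted p below 0.1 (7.6% of all genes) and 2 with a 1.5-fold minimum. Without knockout-labelled replicate 1 it was 10, without replicate 2 of that group 3 and without its replicate 4 it was 0. It was 1 without wild-type replicates 1, 2 or 3 and 2 without wild-type replicate 4. Over all 22180 genes the main fit called 699. That number was 1040, 529 and 207 without knockout-labelled replicates 1, 2 and 4. Without wild-type replicates 1 to 4 in turn, 207, 237, 238 and 410 of all genes were called.

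With the replicate number as a block, 1 member and 2 pathway genes, Acaa1b and Crat, were called. Over all 22180 genes the fit with this block called 497, against 699 in the main fit. The calls of Ppara (limma adjusted p = 0.0651), Rxrg (0.0612) and Plin5 (0.0558) were lost. Deviations of same-numbered arrays from their group means correlated at 0.27, 0.04, -0.10 and 0.29 for numbers 1 to 4, and not every array correlated best with its own number, so the numbers were not taken to pair mice.

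Some differences that did not pass the test changed sign. For the arrays with Y-linked signal alone they were -0.10 for Acot1, -0.06 for Pdk4, 0.56 for Vnn1, 0.10 for Plin2, 0.13 for Fgf21 and 0.22 for Acot2. Rxra had 0.00 for the arrays with Xist signal alone and with a common median, where Pdk4 had -0.02, and Acot2 had 0.02 with quantile normalization and 0.00 with cyclic loess. With 1 array left out, the differences lay between -0.04 and 0.20 for Acot1, -0.12 and 0.15 for Pdk4, -0.70 and 0.11 for Vnn1, -0.40 and 0.12 for Plin2, -0.17 and 0.16 for Fgf21, -0.07 and 0.23 for Ppargc1a and -0.16 and 0.24 for Acot2. Beyond what fewer arrays or more rows bring, the cause was not tested. The median of all genes lay between -0.027 and 0.025 under the 4 scalings. Levels below the array medians, as for Acot1, or near them, as for Fgf21, carry no detection call, so small changes there may not be detectable.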

Other observations

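Cyp4a10, a fatty acid hydroxylase gene induced by PPAR-alpha, is named only in rows that it shares with a neighbour in its family. The row naming Cyp4a10 and Cyp4a31 averaged 11.91 ± 0.37 in knockout-labelled arrays and 11.56 ± 0.35 in wild-type arrays (SD, n = 4 each; difference 0.35; limma adjusted p = 0.417 over every row of the table). The row naming Cyp4a32 and Cyp4a10 averaged 9.27 ± 0.25 in knockout-labelled arrays and 8.72 ± 0.52 in wild-type arrays (difference 0.55; limma adjusted p = 0.287). The row naming Acot8, a peroxisomal thioesterase, together with Snx21 averaged 7.79 ± 0.23 in knockout-labelled arrays and 7.73 ± 0.04 in wild-type arrays (difference 0.06; limma adjusted p = 0.806). None of these shared rows passed the test, and a shared row cannot be assigned to 1 gene.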
